A study of Mus musculus with 4 samples.

Results

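The tumour suppressor p53 is known to switch on the 10 genes followed here in mouse bone marrow: Pmaip1, Bbc3, Mdm2, Fas, Ccng1, Phlda3, Trp53inp1, Sesn2, Gdf15 and Plk2. They were chosen as the probes whose gene name in the array's spot data is one of these symbols, which gave 14 probes for the 10 genes, of 61307 probes and 29411 named genes on the array. Sorted marrow cells of C57BL6/J mice, 7 weeks old, were hybridised to 4 Agilent 1-colour arrays, with 1 array for each of 4 groups. The first group was LSK cells at day 10, the marrow fraction enriched for blood stem cells and early progenitors (Lin-, Sca-1+, c-kit+), taken from recipient mice that had received 700 cGy of radiation and a graft of 30000 LSK cells. The second was LSK cells at day 0, from healthy mice given neither. The other groups were CD45-negative cells, called stromal or niche cells in the labels, at day 10 from recipients treated in that way and at day 0 from healthy mice. The graft came from CD45.2 donors and the recipients were CD45.1. The design text calls the sorted stem cells of day 10 donor cells, so they would be descendants of the graft, and its wording leaves the order of radiation and grafting unclear. Radiation, grafting and the day after them came together in every day 10 sample and cannot be told apart. The sex of the mice, the number of mice behind each array and any pooling are not given in the sources used here.

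p53 is a transcription factor that is stabilised after DNA damage, and ionising radiation is among its best known triggers. Its targets include genes that stop the cell cycle, genes that start cell death, and genes that shut p53 off again. Blood stem and progenitor cells are among the most radiation-sensitive cells of the body, and p53-dependent cell death in the marrow is an early event after irradiation.

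A level is the log2 fluorescence signal of a probe relative to the 75th percentile of its own array, so a difference of 1 is a 2-fold change. Levels of different probes are not comparable with each other, since probes bind with different strength. A gene counted as at least 2-fold higher or lower when its brighter probe was above background and below saturation on both arrays; this is a size and no test, because with 1 array a group no difference has a replicate check. The only errors at hand are technical: replicate spots on an array had a median SD of 0.083 to 0.103 log2 units. Spot noise alone then puts a spread of 0.13, called the technical spread below, on a difference between 2 arrays. This leaves out labelling, hybridisation and mouse-to-mouse variation, so it is a low estimate. The scanner software's own error on each array was 0.14 to 0.15 for Pmaip1 and up to 0.19 for the brighter Fas probe. Between 47.6% and 56.6% of probes were above background on an array. All 8 markers of LSK cells and progenitors were above background on both LSK arrays, Kit at 4.65 at day 10 and 5.04 at day 0. The labels call the CD45-negative cells CD45.1-negative in one place and name no form of CD45 in another, so whether CD45.2 leukocytes of the graft were removed at day 10 is not known. Ptprc, the gene of both forms, was above background in that sort, at 5.58 at day 10 and 3.10 at day 0. Marker levels of several cell types differed between the days there, in a comparison where 24.2% of all measured genes were at least 2-fold higher and 17.2% lower. Markers of T and NK cells were at least 2-fold higher at day 10 in 5 of the 5 measured at both days, of 10 on the list, and the list's median level was 1.68 at day 10 and -3.14 at day 0. Erythroid markers were at least 2-fold lower in 4 of 4 measured, of 8, with a median level of 3.06 at day 10 and 7.97 at day 0. All 8 were above background at both days, and 4 were left out for saturation, though their levels enter these medians. Stromal markers were at least 2-fold lower in 6 of 6 measured, of 9, with a median level of -1.78 at day 10 and 0.07 at day 0, and Lepr, Col3a1 and Pdgfra were not above background at day 10. Of the markers measured there, 4 of 4 for B cells, 4 of 4 for plasma cells, 5 of 7 for neutrophils and 4 of 4 for basophils and mast cells were at least 2-fold higher at day 10, and 4 of 4 for megakaryocytes were lower. Monocyte and macrophage markers were higher in 2 and lower in 1 of 6, endothelial markers higher in 2 of 4 and LSK and progenitor markers higher in 1 of 3. In LSK cells 1.47% of all measured genes were at least 2-fold higher and 2.71% lower at day 10. Neutrophil markers were higher there in 3 of 7, monocyte and macrophage markers in 3 of 6, stromal markers in 2 of 5 and B cell markers in 1 of 6. Basophil and mast cell markers were lower there in 3 of 5, plasma cell markers in 2 of 5, LSK and progenitor markers in 2 of 8, megakaryocyte markers in 1 of 5 and erythroid markers in 1 of 6, T and NK cell markers were higher in 1 and lower in 3 of 8, and 0 of 4 endothelial markers were 2-fold apart. Markers above background on 1 of the arrays compared add bounds of at least 2-fold: in CD45-negative cells at day 10, 4 for T and NK cells, 1 for B cells and 2 for plasma cells were higher, and 1 for megakaryocytes, 3 for stroma, 2 for endothelium and 1 for LSK and progenitors were lower. In LSK cells at day 10, the bounds were lower for the T cell gene Cd3g (at least 2.15-fold), the plasma cell gene Tnfrsf17 (at least 13.3-fold) and the endothelial gene Cdh5 (at least 4.42-fold). In such sorted bulk RNA, a change in the share of a cell type and a change in RNA per cell cannot be told apart.

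Mdm2, Ccng1, Fas and Trp53inp1 each have a pair of probes, which are shown because they do not always report the same change. Each probe is 60 bases long, and its first 30 bases are given in lower case, except for the second Trp53inp1 probe, where the 26-base unit that repeats along the probe is given.
Mdm2 probe 1, chromosome 10: cattcagaaagactgaatcagaacatggat
Mdm2 probe 2, chromosome 10: gatggcgtaagtgagcattctggtgattgc
Ccng1 probe 1, chromosome 11: agaaataaaattgctgagtttatctgcaaa
Ccng1 probe 2, chromosome 11: tcagaagttgaaatggattgtgtctggacg
Fas probe 1, chromosome 19: caactcctggtgtgttctctttgccagcaa
Fas probe 2, chromosome 19: ggagagactctttaaaatgaaaacacaata
Trp53inp1 probe 1, chromosome 4: gtgtgtttatgggcacaatgttttctctca
Trp53inp1 repeat unit of probe 2, chromosome 4: agtactaatacttaccacagcaggcg
Read as the array lists it, the whole of Mdm2 probe 1 has a stop codon in every frame, while Mdm2 probe 2 has 1 frame free of stops. The Ccng1 probes are alike in this: probe 1 has 0 frames free of stops and probe 2 has 2. In each pair the brighter probe is number 1 and stands for the gene in every count. None of the printed stretches occurs in another probe of the array. The exon or untranslated region that each probe lies in was not determined here.

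Among the 10 genes, Pmaip1 was the one gene at least 2-fold higher at day 10 in both populations. Its protein, Noxa, is a BH3-only protein that frees the cell death machinery by binding the survival protein Mcl1. The level of Pmaip1 was 3.28 in LSK cells at day 10, against 1.86 in LSK cells at day 0. In CD45-negative cells it was 2.17 at day 10, against -0.42 at day 0. The levels on both day 10 arrays lay above those on both day 0 arrays. The day difference was 1.41 in LSK cells, a 2.67-fold higher signal, and 2.59 in CD45-negative cells, a 6.02-fold higher signal. Among all genes measured in LSK cells 98.3% had a smaller difference in either direction. In CD45-negative cells that share was 94.3%. Over all genes 1.47% were at least 2-fold higher in LSK cells and 24.2% in CD45-negative cells, and the share higher in both is not given. Genes outside the 10 were also at least 2-fold higher in both, among them Atf3, Bcl2a1a and the neutrophil markers Ltf, Camp and Ngp. Marker lists moved beside Pmaip1 in both populations, as given above, and their part in the result was not tested.

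Bbc3 did not share this pattern. It encodes Puma, the other BH3-only protein through which p53 is best known to kill cells. Bbc3 stood at 1.74 in LSK cells at day 10 and 1.91 at day 0, and at 1.84 in CD45-negative cells at day 10 and 2.54 at day 0. The difference was -0.17 in LSK cells, close to the technical spread of 0.13, and -0.69 in CD45-negative cells, a 1.62-fold lower signal. The highest of the 4 levels was thus that of CD45-negative cells in healthy mice.

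**Figure D1:**
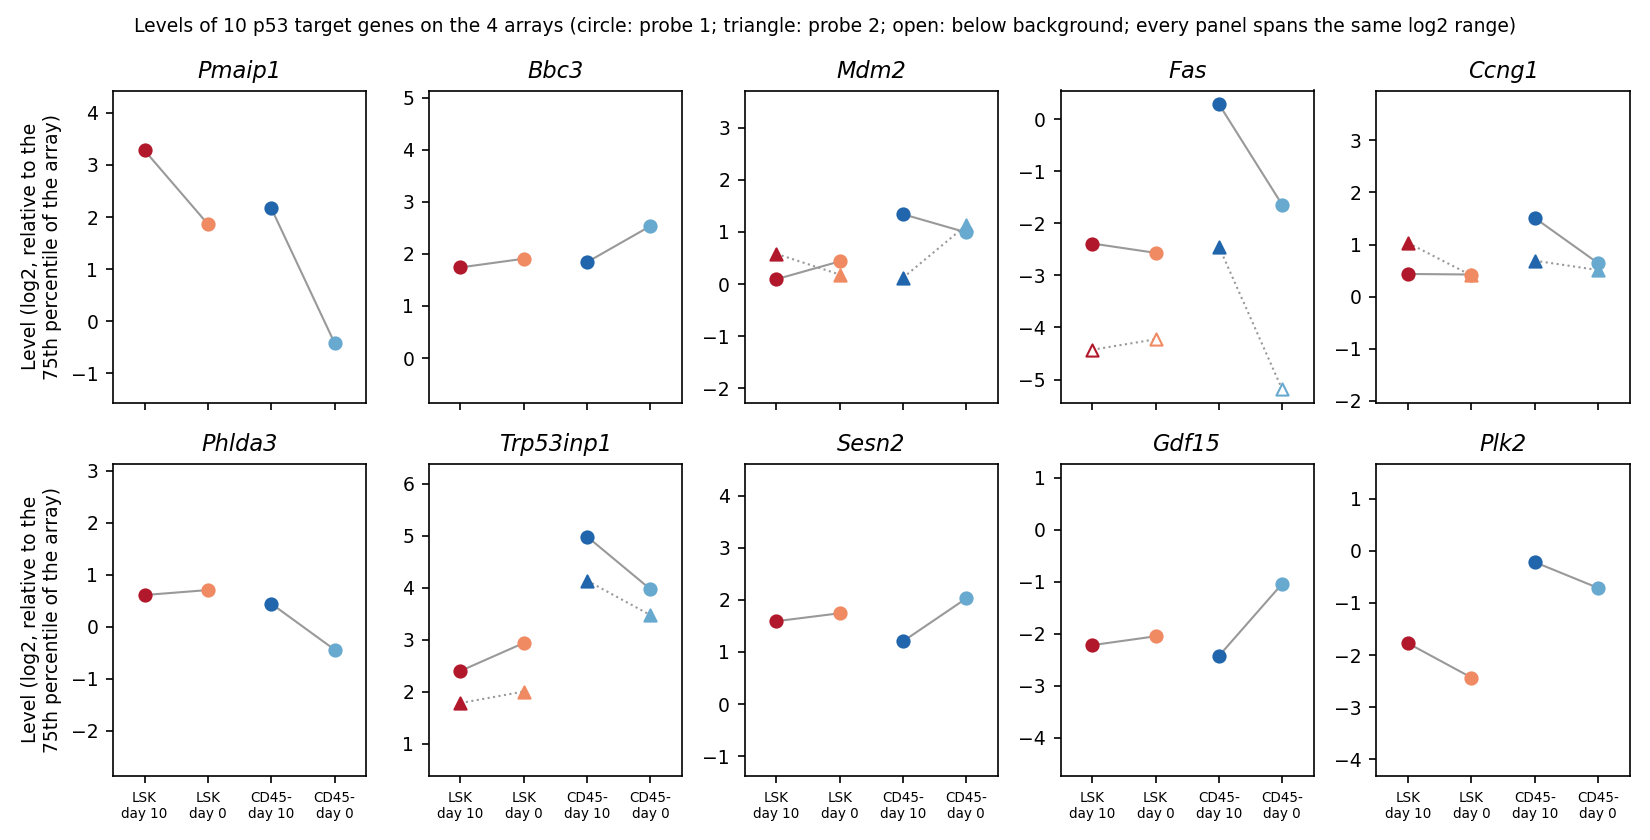
Level of each p53 target gene on the 4 arrays (vertical axis, log2 relative to the 75th percentile of the array; every panel spans the same range), with LSK cells in red and CD45-negative cells in blue, day 10 left of day 0. Each point is 1 probe on 1 array and open points are below background; Pmaip1 is higher at day 10 in both populations, and Fas is higher at day 10 in CD45-negative cells (0.29 against -1.64).

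Fas, the cell surface receptor that starts cell death when its ligand binds, was higher at day 10 in CD45-negative cells. Its brighter probe stood at -2.39 in LSK cells at day 10 and -2.57 at day 0, and at 0.29 in CD45-negative cells at day 10 and -1.64 at day 0. Both LSK arrays therefore lay below both CD45-negative arrays as processed here. At day 0 this order depends on the processing. The difference of LSK from CD45-negative cells was -0.92 there, but up to 0.02 under 8 other ways of processing and 0.84 when aligned on spike-ins. The day difference was 0.18 in LSK cells and 1.93 in CD45-negative cells, where the signal was 3.82-fold higher. The other Fas probe was above background on the day 10 CD45-negative array alone, which makes it at least 1.63-fold higher there than at day 0, measured against the lowest level called above background on the dim array. Markers of T and NK cells and of B cells, whose lists were higher in the same comparison, were not separated from Fas, and their part in the result was not tested.

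Trp53inp1, a nuclear protein that assists p53 in cell death and autophagy, had its highest level on the day 10 CD45-negative array at either probe. The first probe stood at 2.40 in LSK cells at day 10, 2.94 in LSK cells at day 0, 4.98 in CD45-negative cells at day 10 and 3.97 in CD45-negative cells at day 0. The other probe stood at 1.79 in LSK cells at day 10, 2.01 in LSK cells at day 0, 4.14 in CD45-negative cells at day 10 and 3.47 in CD45-negative cells at day 0. Both probes placed the arrays in the same order and differed in the size of the steps. In CD45-negative cells the day difference was 1.01 at the first probe (2.01-fold higher) and 0.66 at the other, so the 2-fold mark was reached at the first probe only. In LSK cells it was -0.54 and -0.22.

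Mdm2 encodes the ubiquitin ligase that marks p53 for destruction and is itself switched on by p53, which closes a feedback loop. The pair of Mdm2 probes gave opposite answers in both populations. Probe 1 stood at 0.09 in LSK cells at day 10 and 0.44 at day 0, and at 1.34 in CD45-negative cells at day 10 and 0.99 at day 0. Probe 2 stood at 0.58 in LSK cells at day 10 and 0.18 at day 0, and at 0.12 in CD45-negative cells at day 10 and 1.13 at day 0. By probe 1 the gene was lower in LSK cells (-0.34) and higher in CD45-negative cells (0.35). By probe 2 it was higher in LSK cells (0.40) and lower in CD45-negative cells (-1.01, a 2.01-fold lower signal). Probes of the same gene usually lay closer: over the 3903 genes with 2 measured probes in LSK cells the median gap between day differences was 0.25, and 88.2% of them had a smaller gap than the 0.74 of Mdm2. Over 3378 such genes in CD45-negative cells the median gap was 0.34, and 94.6% had a smaller gap than the 1.36 of Mdm2. No direction is given for Mdm2 as a gene.

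Ccng1, which encodes cyclin G1, a target that recruits a phosphatase to Mdm2, also differed between probes, though not in sign. Probe 1 stood at 0.44 in LSK cells at day 10 and 0.42 at day 0, and at 1.51 in CD45-negative cells at day 10 and 0.64 at day 0. Probe 2 stood at 1.03 in LSK cells at day 10 and 0.41 at day 0, and at 0.69 in CD45-negative cells at day 10 and 0.51 at day 0. In LSK cells the day difference was 0.01 by probe 1 and 0.63 by probe 2. In CD45-negative cells it was 0.87 by probe 1 and 0.18 by probe 2. The first probe thus places the larger day difference in CD45-negative cells and the other in LSK cells. No day difference of Ccng1 reached 2-fold at either probe.

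Phlda3, an inhibitor of the survival kinase Akt, stood at 0.61 in LSK cells at day 10 and 0.71 at day 0, and at 0.45 in CD45-negative cells at day 10 and -0.44 at day 0. Its day difference was -0.10 in LSK cells, within the technical spread, and 0.88 in CD45-negative cells, a 1.85-fold higher signal that stays short of 2-fold. Plk2, a kinase of the polo-like family that p53 induces, had the second highest day difference of the 10 in LSK cells, where it stood at -1.78 at day 10 and -2.43 at day 0. In CD45-negative cells it stood at -0.22 at day 10 and -0.71 at day 0. Its day difference was 0.66 in LSK cells and 0.50 in CD45-negative cells, and neither reached 2-fold.

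The stress-responsive pair Sesn2 and Gdf15 ran the other way in CD45-negative cells. Sesn2 encodes a sestrin, which restrains the growth kinase complex mTORC1, and Gdf15 a secreted cytokine of the TGF-beta family; both can also be induced by the integrated stress response. Sesn2 stood at 1.59 in LSK cells at day 10 and 1.74 at day 0, and at 1.20 in CD45-negative cells at day 10 and 2.03 at day 0. Gdf15 stood at -2.22 in LSK cells at day 10 and -2.05 at day 0, and at -2.43 in CD45-negative cells at day 10 and -1.04 at day 0. For both genes the day 0 CD45-negative array had the highest level and the day 10 CD45-negative array the lowest. The difference in CD45-negative cells was -0.83 for Sesn2 and -1.39 for Gdf15, a 2.62-fold lower signal, while in LSK cells it was -0.15 and -0.17. Erythroid, megakaryocyte and stromal marker lists were lower in the same comparison, and their part in the result was not tested.

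Counted over the 10 genes, 1 was at least 2-fold higher and 0 lower in LSK cells at day 10, where 4.18% of 16139 measured genes were 2-fold apart in either direction and 1.47% were higher. In CD45-negative cells 3 were at least 2-fold higher (Pmaip1, Fas and Trp53inp1) and 1 lower (Gdf15), in a comparison where 41.3% of 14209 measured genes were 2-fold apart, 24.2% higher and 17.2% lower. The shares of 3 and 1 in 10 are near those backgrounds. The median difference of the 10 genes was -0.12 in LSK cells, against 0.00 over all genes, and 0.68 in CD45-negative cells, against 0.22. Differences above 0 were found for 4 of 10 in LSK cells (50.2% of all genes) and 7 of 10 in CD45-negative cells (57.7% of all genes). The split of all 2-fold differences depends on how arrays are scaled. Of those in LSK cells 35.3% were higher, but 45.8% when arrays were aligned on their median and 17.0% when aligned on spike-in spots; in CD45-negative cells the shares were 58.4%, 76.9% and 99.0%. Aligning on spike-ins moved the median of all genes in CD45-negative cells by 3.26 and aligning on the median moved it by 0.46. Directions there, also of differences past 2-fold, are thus relative to the bulk of the array. In that comparison 2442 genes were at least 2-fold lower as reported and 135 with spike-ins, and Gdf15 was 1.87 higher with spike-ins.

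**Figure D2:**
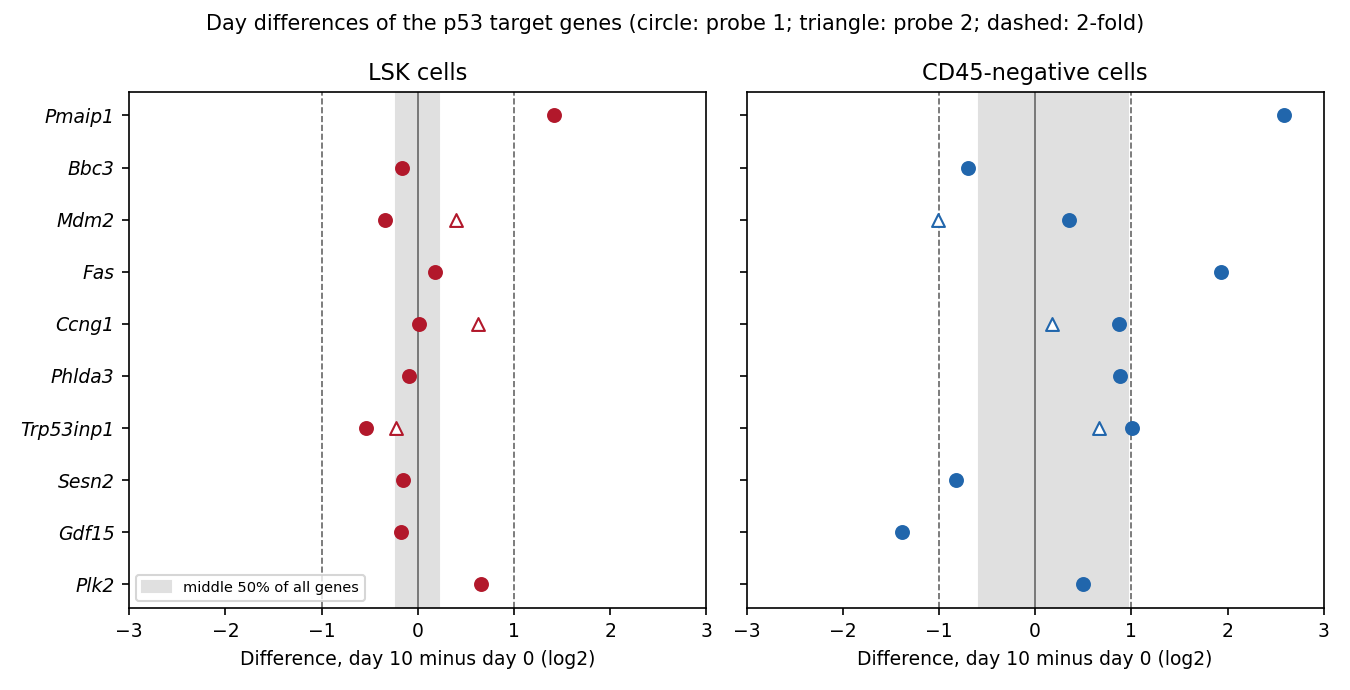
Difference between day 10 and day 0 (horizontal axis, log2) for each p53 target gene in LSK cells (left) and CD45-negative cells (right). Filled circles are the brighter probe and open triangles the other probe, the grey band holds the middle 50% of all measured genes and dashed lines mark 2-fold; the pair of Mdm2 probes lies on opposite sides of 0 in both panels.

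**Figure D3:**
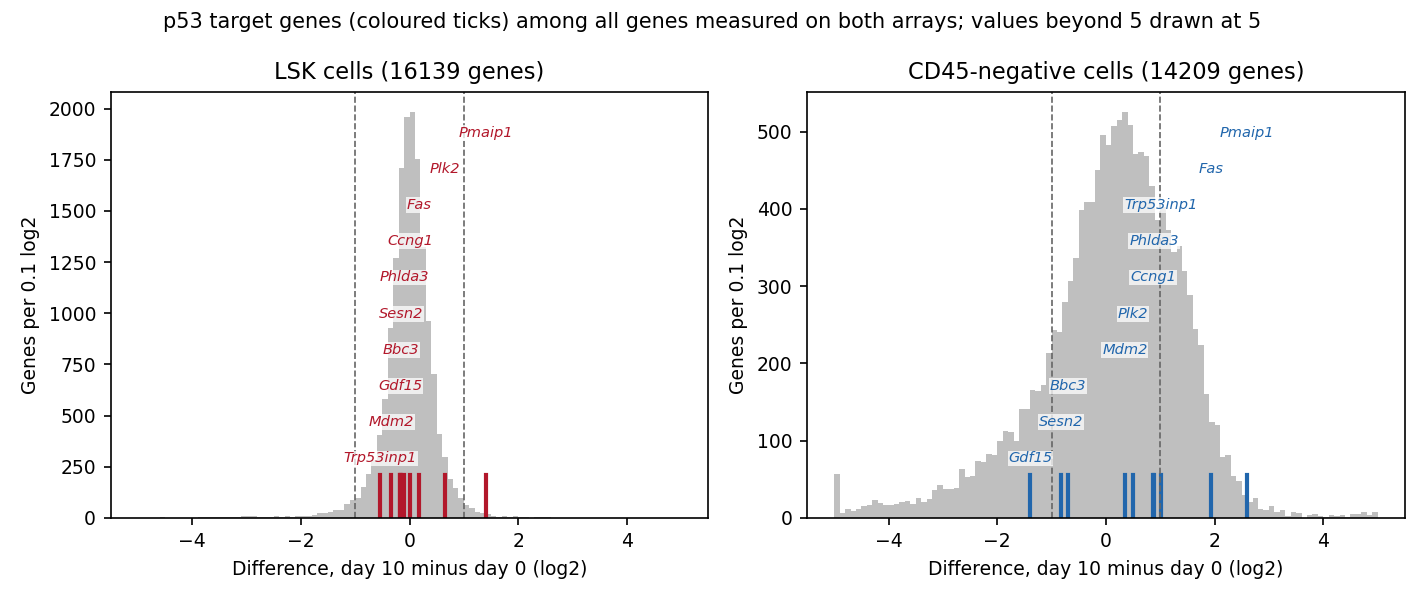
Number of genes (vertical axis) by day difference (horizontal axis, log2, values beyond 5 drawn at 5) for all genes measured on both arrays, with the p53 target genes as coloured ticks under their names. The spread of all genes is wider in CD45-negative cells (SD 1.37) than in LSK cells (SD 0.49), and Pmaip1 lies in the upper tail of both.

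The populations were also compared at each time. At day 10, 1 of the 10 genes was at least 2-fold higher in LSK cells than in CD45-negative cells (Pmaip1, 1.11) and 5 were lower, where 24.2% of 15518 measured genes were 2-fold apart, 11.3% higher and 12.9% lower. The 5 were Fas (-2.68, a 6.40-fold lower signal), Trp53inp1 (-2.58, 5.97-fold lower), Plk2 (-1.56), Mdm2 (-1.25) and Ccng1 (-1.08). The second Trp53inp1 probe gave -2.35 and the second Fas probe was at least 3.20-fold lower, while the second probes of Mdm2 (0.46) and Ccng1 (0.34) gave the opposite sign. At day 0, 2 genes were at least 2-fold higher in LSK cells than in CD45-negative cells, Pmaip1 (2.28, a 4.86-fold higher signal) and Phlda3 (1.14), and 3 were lower, Plk2 (-1.72), Trp53inp1 (-1.03) and Gdf15 (-1.01). At that time 40.0% of 14349 measured genes were 2-fold apart, 22.2% higher and 17.8% lower. These calls depend on the processing, though dropping the detection filter could not change them. At day 10 Fas, Trp53inp1 and Plk2 kept theirs under all 9 alternatives, Mdm2 and Ccng1 under 8 and Pmaip1 under 6, with a value of -0.57 when arrays were aligned on spike-ins. At day 0 Pmaip1 kept its call under all 9, Phlda3 and Plk2 under 7, Gdf15 under 6 and Trp53inp1 under 5, with values of 0.73 for Trp53inp1, 0.75 for Gdf15 and 0.040 for Plk2 when aligned on spike-ins.

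The day difference in LSK cells minus that in CD45-negative cells, which uses all 4 arrays and leaves no residual degree of freedom, was -1.75 for Fas, -1.55 for Trp53inp1, -1.17 for Pmaip1 and 1.22 for Gdf15. These 4 were past 2-fold, 3 of them lower and 1 higher, where 40.7% of 13841 genes were past it, 23.6% lower and 17.1% higher. For the other 6 genes the value lay between -0.98 (Phlda3) and 0.67 (Sesn2). None of these differences between populations was tested.

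**Figure D4:**
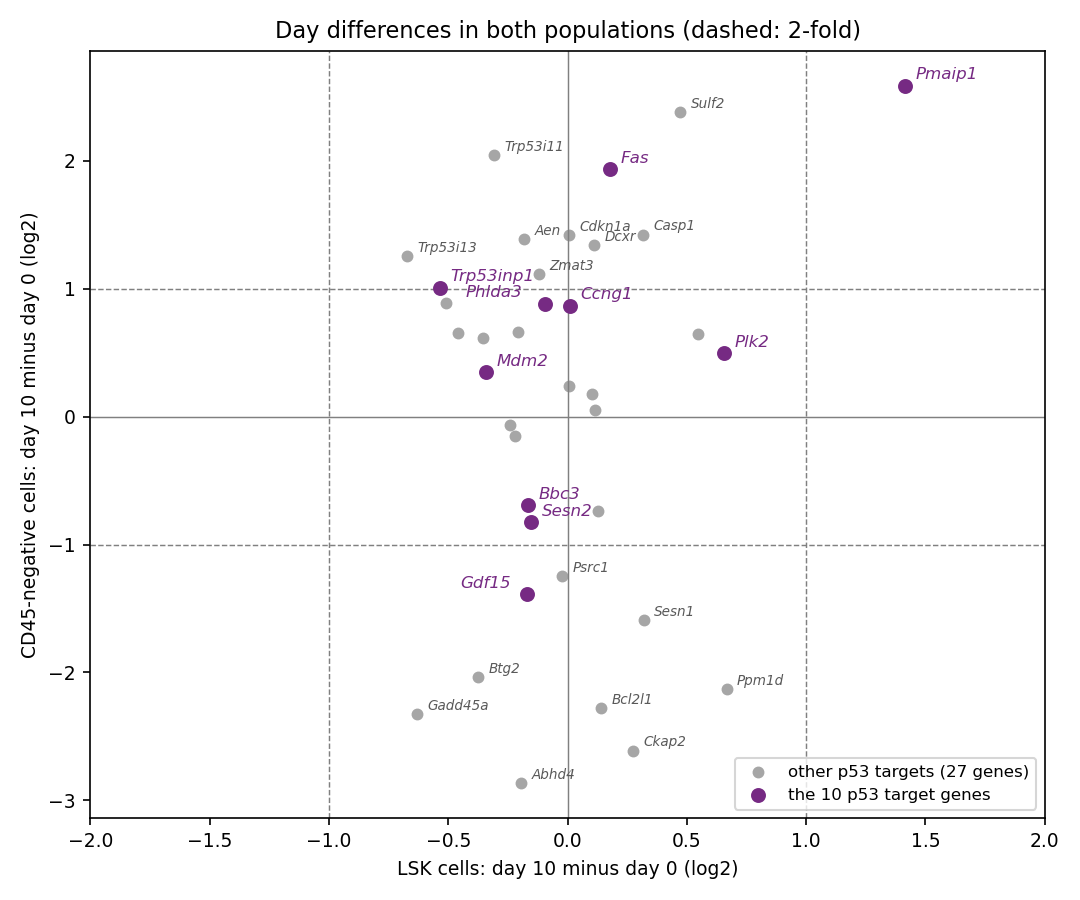
Day difference in LSK cells (horizontal axis, log2) against day difference in CD45-negative cells (vertical axis, log2) for the 10 p53 target genes (purple) and 27 other p53 targets measured on all arrays (grey), with dashed lines at 2-fold. Pmaip1 is the only labelled gene past 2-fold on both axes, and the other targets spread along the vertical axis in both directions.

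Beside the 10 genes, 34 other known p53 targets were read. Of 31 measured in LSK cells, 0 were at least 2-fold higher and 1 lower, Cx3cl1 (-1.08), a chemokine, with a median of -0.12. Over all genes measured there, 1.47% were higher and 2.71% lower, so these counts are near the background. Cdkn1a, the cell cycle inhibitor p21 and the textbook p53 target, stood at 1.76 in LSK cells at day 10 and 1.75 at day 0, a difference of 0.01. Trp53, which encodes p53 itself and is controlled mainly at the protein level, stood at 2.45 at day 10 and 2.02 at day 0. In CD45-negative cells 8 of 27 measured targets were at least 2-fold higher and 8 lower, with a median of 0.24, where 24.2% of all genes were higher and 17.2% lower with a median of 0.22. Cdkn1a was among those higher, with 1.60 at day 10 and 0.17 at day 0, a 2.68-fold higher signal, as was Sulf2 (2.38), a sulfatase of the cell surface. Abhd4 (-2.86), Ckap2 (-2.61) and Gadd45a (-2.32), a growth arrest gene, were lower. Beyond these, Ephx1 and Rrm2b were at least 4.50-fold and 3.03-fold higher in CD45-negative cells at day 10, and Cx3cl1 at least 6.38-fold lower, each against the lowest level called above background on the dim array. Trp53 in CD45-negative cells had 0.56 at day 10 and 0.25 at day 0, and its other probe gave a difference of -0.30.

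The genes around the 10 in their pathways were read from lists of partners. Of 19 regulators of p53, 16 were measured in LSK cells. By the brighter probe 0 were 2-fold apart there, where 4.18% of all genes were. The largest difference was that of the kinase Hipk2 (0.77, with -0.01 at its other probe). The other probe of Ep300, a p53 coactivator, gave 1.0 in LSK cells, against -0.08 at the brighter one. In CD45-negative cells 1 of 16 was at least 2-fold higher, Hipk2 (1.54, with -2.64 at its other probe), and 3 were lower, the checkpoint kinase Chek2 (-2.18), the phosphatase Ppm1d (-2.13) and the deubiquitinase Usp7 (-1.92). Over all genes measured there, 24.2% were higher and 17.2% lower. Of 11 partners of Noxa and Puma on the array, the survival gene Bcl2a1a was higher in both populations, by 1.18 in LSK cells and 2.69 in CD45-negative cells. Bcl2a1a belongs to a family of near-identical copies, and its probe may not separate them. The copy Bcl2a1b differed by -0.30 in LSK cells at its brighter probe and by 0.69 at the other. In CD45-negative cells these probes gave 0.78 and 2.58. In CD45-negative cells the survival gene Bcl2 was also higher (1.90) and Bcl2l1, which encodes Bcl-xL, lower (-2.28). Mcl1, the main partner of Noxa, stood at 5.05 in LSK cells at day 10 and 5.12 at day 0, and at 5.57 in CD45-negative cells at day 10 and 5.03 at day 0. Its other probe gave a day difference of 0.11 in LSK cells and 1.41 in CD45-negative cells, where the brighter probe gave 0.54.

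Around Fas, 1 of 8 genes of its signalling path was at least 2-fold lower in LSK cells at day 10, the ligand gene Fasl (-1.02). Over all genes measured in LSK cells, 1.47% were higher and 2.71% lower, which is also the background of the LSK counts that follow. In CD45-negative cells Fasl was at least 9.72-fold higher at day 10, where it had a level of 0.13 and was below background at day 0, and the initiator protease Casp8 was higher by 1.13. Fasl is known to be made by T and NK cells, whose markers were higher in that comparison, and their part was not tested. Around Sesn2, 10 sestrin and mTORC1 partners were measured in CD45-negative cells. The family member Sesn3 was at least 2-fold higher (2.03), and 2 genes were lower, Nprl3 (-2.07) and the family member Sesn1 (-1.59). Over all genes there, 24.2% were higher and 17.2% lower. In LSK cells 0 of 9 such partners were 2-fold apart. Around Plk2, the 3 relatives that were read, Plk1, Plk3 and Plk4, were 2-fold apart in CD45-negative cells, where 41.3% of all genes were. Plk3 was higher (2.71), Plk4 (-2.09) and Plk1 were lower, and none of the 3 was 2-fold apart in LSK cells. Of 13 measured genes of the integrated stress response, 1 was higher and 1 lower in LSK cells, the transcription factor Atf3 (2.33) and the glutathione-degrading enzyme Chac1 (-1.52). In CD45-negative cells, where 24.2% of all genes were higher and 17.2% lower, 6 of the 13 were higher and 6 lower, with Chac1 (2.44) and the phosphatase subunit Ppp1r15a (-3.14) at the ends. Atf3 was among those higher there (1.16).

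The genes whose levels over the 4 arrays lay nearest to those of the 3 most variable members were found by distance, after each gene was centred on its own mean, among 9763 genes above background on every array. For Pmaip1, whose levels spanned 3.70, they were Thrap2 (distance 0.29), Msn (0.31) and Pigt (0.31), and 0.553% of genes lay within a distance of 1. For Fas, spanning 2.86, they were Ebf1 (0.03), Gbp4 (0.15) and Atp1b1 (0.15), and 2.25% of genes lay within 1. For Trp53inp1, spanning 2.58, they were Dnajc7 (0.21), Pqlc3 (0.22) and Tifa (0.32), with 2.78% within 1. The share within 1 was smaller the wider the span of the member. Because the distance is not scaled by the span, these shares do not compare how many genes followed each course. With 4 arrays such likeness is a description only.

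The promoters were searched because p53 binds DNA at pairs of half-sites. RefSeq promoter windows of build GRCm38.p6, 300 bases that run from before to just after the gene start, were at hand for 8 of the 10 genes, as 11 windows, and Pmaip1 and Trp53inp1 had none. The p53 half-site, which reads as its own pattern on the opposite strand, was found in 2745 of 32851 promoter windows (8.36%). Of the 10 genes, Mdm2 and Ccng1 had 1 each. The sites are printed with 10 bases on either side and the half-site in capitals.
Mdm2, chr10:117710925-117710954, minus strand: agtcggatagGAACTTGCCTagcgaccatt
Ccng1, chr11:40755452-40755481, minus strand: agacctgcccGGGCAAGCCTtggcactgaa
The half-site starts 186 bases before the start of Mdm2 and 185 before that of Ccng1. The windows of Fas, Gdf15, Bbc3, Phlda3, Sesn2 and Plk2 hold no half-site, and sequence outside the windows, such as introns, was not searched. Whether half-sites go with day differences was not tested. A match describes these letters and says nothing of binding.

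**Figure D5:**
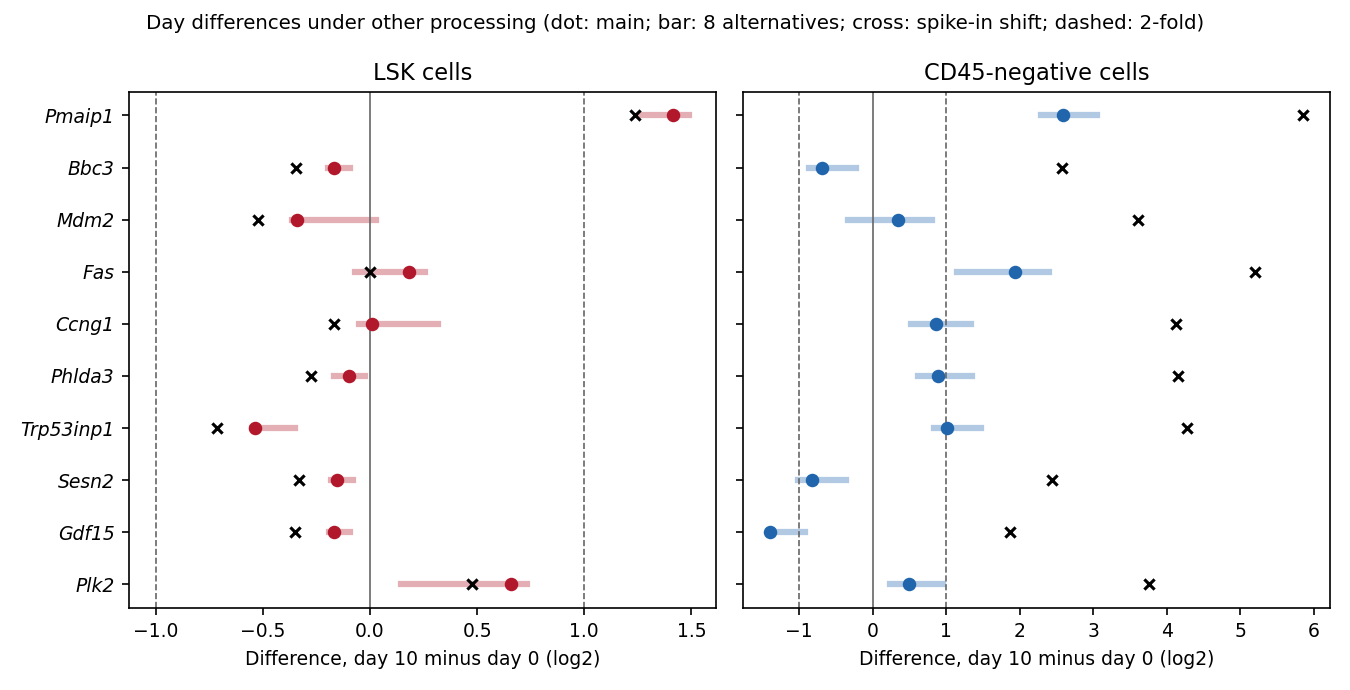
Day difference of each p53 target gene (horizontal axis, log2, with different scales in the panels) in LSK cells (left) and CD45-negative cells (right). Dots are the values as reported, bars run over 8 other ways of processing, crosses show alignment on spike-in spots and dashed lines mark 2-fold; Pmaip1 stays above 1 in both panels, and all 10 crosses lie above 1 in CD45-negative cells.

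Under all 9 other ways of processing, Pmaip1 stayed at least 2-fold higher at day 10 in both populations and Fas in CD45-negative cells. Not all 9 could change these values. Dropping the detection filter could not, since the brighter probe of each gene was above background on every array. The mean over probes could not for Pmaip1, which has 1 probe, and the deposited table holds the same signal shifted by 1 constant per array. Without the spike-in alignment, the difference of Pmaip1 lay between 1.26 and 1.49 in LSK cells and between 2.29 and 3.05 in CD45-negative cells, and that of Fas between 1.15 and 2.40. Trp53inp1 and Gdf15 kept their 2-fold difference in CD45-negative cells under 7 of the 9. Trp53inp1 dropped below it with cyclic loess normalization and with the mean of its probes, and Gdf15 with the median alignment, while with spike-ins it was 1.87 higher.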

How the data were processed

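Sorted marrow cells of 4 groups were measured on 1 array each. Per the file headers, the authors' scans were read with Agilent Feature Extraction 10.5.1.1, and the deposited spot signals are fluorescence intensity values, raw and background-subtracted. Deposited flags for detection, saturation and outliers are of another kind (unit: other). The series table, also deposited, is in log2 units, and its values equal the log2 processed signal minus 1 constant per array within 0.001 for at least 99.977% of probes. The array's design build is mm9 per the file headers.

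Here control and outlier spots were removed, processed signals were log2-transformed and averaged per probe, and each array was shifted to put its 75th percentile at 0. The brightest probe, by its mean level, stood for its gene. Differences of at least 2-fold were counted without a test. No model was fitted; population and day as additive terms would leave 1 residual degree of freedom. The counting script was tested on simulated data. A lower bound uses the lowest level called above background, -4.12 for LSK cells at day 10, -3.95 at day 0, -4.24 for CD45-negative cells at day 10 and -3.15 at day 0.

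The members, the 7 pathway and 12 marker lists (172 of 173 genes on the array), the 2-fold mark and the alternatives were chosen with earlier results of these data known. Named genes were all members, Cdkn1a, Trp53, up to 4 genes with the largest difference of each list and population, and the 3 genes nearest to each of the 3 widest-ranging members; Mcl1 was named as the partner of Noxa, and genes with bounds and marker genes were added after their values were seen. The 9 alternatives were normexp background correction (offset 50, limma 3.58.1), quantile, cyclic loess, median, detected-probe 75th percentile and spike-in alignment, the deposited table, the mean over probes, and no detection filter. Python 3.11.15 and R 4.3.3 were used. The number of arrays limits the precision.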

Additional observations from a re-analysis of the deposited data

Results flagged for a closer look

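The day difference had opposite signs in the populations for 3 of the 10 genes, which was not tested: 1 array a group gives no spread to test it against. Over all genes 50.2% of day differences in LSK cells and 57.7% in CD45-negative cells were above 0. The share of all genes with opposite signs is not given, so the count of 3 has no background beside it. The value in LSK cells minus that in CD45-negative cells was -1.55 for Trp53inp1 (-0.54 in LSK cells and 1.01 in CD45-negative cells), and the other Trp53inp1 probe gave -0.88 with the same pair of signs. It was -0.98 for Phlda3 (-0.10 and 0.88), whose LSK difference is within the technical spread of 0.13. It was -0.69 for Mdm2 (-0.34 and 0.35) by the brighter probe, while the other probe gave 1.41 with both signs turned round.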

How the results depend on the processing

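Each of the 10 genes in 5 comparisons was recomputed under 9 alternatives. Of these 450 values, 290 moved by less than the technical spread and 154 by more. The 290 include values that could not move: all 50 without the detection filter, and the mean over probes for genes with 1 probe. The 50 from the deposited table, the same signal shifted by 1 constant per array, are also among the 290. The other 6 values were at least 2-fold as reported and changed sign. All 6 came from the spike-in alignment: Gdf15 by day in CD45-negative cells (1.87) and in the difference between populations (-2.22), Trp53inp1 (0.73), Gdf15 (0.75) and Plk2 (0.040) in LSK against CD45-negative cells at day 0, and Pmaip1 (-0.57) in the same at day 10. That alignment rests on 5 probes, and the cause of the shift was not tested. Counts of genes at least 2-fold apart held in LSK cells by day. In CD45-negative cells by day, 5 were higher with the median alignment and 10 with spike-ins, and 2 were lower with cyclic loess, 0 with the median and 0 with spike-ins. For LSK against CD45-negative cells at day 10, 0 were higher with normexp, the median or spike-ins, 9 lower with spike-ins and 3 lower with the mean of probes. At day 0, 1 was higher with normexp or cyclic loess and 6 with spike-ins, and 0 were lower with normexp or spike-ins and 1 with the detected-probe percentile. For the difference between populations, 0 were higher with normexp, the median or spike-ins, and 6 were lower with the median and 10 with spike-ins. Over all genes, normexp gave 74 higher and 151 lower in LSK cells, against 238 and 437 as reported, and in CD45-negative cells 5470 were higher with the median alignment and 13398 with spike-ins, against 3433. Without the detection filter 1458 were higher and 1954 lower in LSK cells, and 4827 higher and 10726 lower in CD45-negative cells. Day with population as a block over the 4 arrays would leave 1 residual degree of freedom and was not run. The dim probe of Plk2 had a day difference in LSK cells of 0.14 with normexp, against 0.66 as reported.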
